A study of Mus musculus with 8 samples.

Results

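Transcripts of 8 basic helix-loop-helix (bHLH) genes were followed in touch receptor cells and epidermal cells of newborn mouse skin: the proneural factors Neurod1, Neurod2, Neurod4, Nhlh1 and Nhlh2, and the E proteins Tcf3, Tcf4 and Tcf12. They were chosen by name, as proneural factors other than Atoh1 and the E proteins that pair with such factors. Earlier results of these data were known when they were chosen. All 8 were among the 24538 genes of the count tables, and 5 of them had enough counts to be tested. All cells came from Atoh1-GFP mice at postnatal day 0. Merkel cells, the touch receptors of the epidermis, were sorted by the presence of GFP and EpCAM and the absence of Sca1. Cells labelled IFE, an abbreviation that the submitters left unexpanded, carried EpCAM and Sca1 but no GFP. Each was taken from the paw and from back skin, with 2 libraries for each of the 4 groups. The GFP allele was shared by every group, and nothing in the labels tells separate animals from pools or repeat libraries. The p-values therefore rest on the spread among these libraries, which may be technical.

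Proneural factors are class II bHLH proteins that drive progenitors into neuronal, neuroendocrine or sensory fates. They act as dimers with the broadly expressed class I bHLH proteins, the E proteins, and the dimers bind the E-box, a short palindromic DNA motif. Atoh1 is the proneural factor that specifies Merkel cells, and its reporter was the basis of the sort. The Id proteins lack the DNA-binding basic region and hold E proteins in inactive dimers. Tcf3 (also called E2A) and Tcf4 (E2-2) are E proteins and are not the WNT effectors Tcf7l1 and Tcf7l2, which have older names like theirs and had entries of their own in the tables.

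Nhlh1 and Neurod1 were the proneural members that differed between the cell types, and the 250 bases before their annotated starts are shown because both factors and their relatives read the E-box. The sequences are from RefSeq (GRCm38.p6), 5′ to 3′ on the strand of the gene, with each E-box, CANNTG, in capitals. Nhlh1 lies on the minus strand of chromosome 1 and Neurod1 on the minus strand of chromosome 2. The starts are those of RefSeq, whereas GENCODE, used for the gene positions below, places the Neurod1 start upstream, at 79456751. Part of the Neurod1 window thus lies within the gene as GENCODE places it.
Nhlh1, chr1:172057597-172057846: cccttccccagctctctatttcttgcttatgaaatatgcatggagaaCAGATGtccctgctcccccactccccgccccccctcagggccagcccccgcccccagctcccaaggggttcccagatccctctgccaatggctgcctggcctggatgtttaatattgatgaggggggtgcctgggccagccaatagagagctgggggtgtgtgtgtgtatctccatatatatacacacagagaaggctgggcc
Neurod1, chr2:79456637-79456886: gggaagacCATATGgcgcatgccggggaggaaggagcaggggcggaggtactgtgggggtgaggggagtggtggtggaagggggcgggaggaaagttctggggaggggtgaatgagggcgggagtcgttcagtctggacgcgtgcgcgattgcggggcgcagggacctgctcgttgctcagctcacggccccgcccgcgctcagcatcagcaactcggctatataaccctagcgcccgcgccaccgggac
CANNTG reads alike on both strands. The Nhlh1 window held 1 such match, CAGATG, which began 203 bases before the start, and the Neurod1 window held 1, CATATG, 242 bases before it. Over 32851 windows of the same length 66.2% held at least 1 CANNTG, and 14.4% held CAGATG on either strand. Most windows of this length thus hold such a match. Among the other members with an entry, Neurod2 had 3 matches, Nhlh2 had 2, Tcf3 had 1 and Neurod4 had 0, and the 3 listed starts of Tcf12 had 1, 1 and 0.

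Library totals ran from 11139306 to 26195076 counts. The labels held against marker genes: 7 of 7 Merkel markers were higher in Merkel cells at both sites, and their summed level was 2292 to 3379 CPM (counts scaled by library size with TMM) in Merkel libraries against 8.58 to 17.3 CPM in IFE libraries. The IFE libraries carried keratinocyte markers at 29045 to 44450 CPM, against 1771 to 7762 CPM in Merkel libraries, highest in paw Merkel library 1. Of these 7 markers 5 were lower in Merkel cells at both sites, while Krt1 and Krt10 passed the threshold given below at neither. Their means were 664 to 1409 CPM in Merkel groups and 2850 to 4118 CPM in IFE groups. Back IFE library 1 carried immune and Langerhans cell markers at 797 CPM, against 135 CPM in back IFE library 2, 32.2 to 49.4 CPM in paw IFE and at most 9.25 CPM in Merkel libraries. In paw Merkel library 2 GC-rich transcripts were low: genes over 60% GC had a median log2 difference of -0.95 from library 1, and genes under 40% GC one of 0.27. Back IFE library 2 correlated across genes more closely with paw IFE (up to 0.931) than with the other back IFE library (0.897). The paw Merkel libraries had the lowest correlation between libraries of a group (0.826), and library 1 was closer to back Merkel library 1 (0.858), which bears on every paw Merkel value.

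The first question was which of these factors Merkel cells carry beyond Atoh1. In the paw 3 of the 5 tested members were higher in Merkel than in IFE cells (Nhlh1, Neurod1 and Tcf4) and 0 were lower, while 6.21% of the 15151 genes tested passed the same threshold, 4.28% higher and 1.93% lower. In back skin 2 were higher (Nhlh1 and Neurod1) and 0 lower, against 15.4% of all genes, 7.99% higher and 7.45% lower. Nhlh1 reached at most 0.444 CPM in IFE libraries, and Neurod1 had 0 counts there. Both passed the filter on low counts through Merkel libraries, so neither could have been called lower, unlike many genes behind those shares. The members were also chosen with earlier results of these data known, so their counts are a description only. The threshold was a Benjamini-Hochberg adjusted p of 0.05, over all genes tested, from the quasi-likelihood test of edgeR. In bulk RNA a lower level cannot be told apart from fewer cells that carry the transcript.

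Nhlh1 (chromosome 1, 172052292 to 172057573, GRCm38) encodes a neuronal bHLH factor also known as HEN1 or NSCL1, and per length it was the most abundant member in every Merkel library. The paw Merkel libraries 1 and 2 held 8562 and 1630 counts (410 and 150 CPM), and the back Merkel libraries 4302 and 2234 counts (327 and 218 CPM). The paw IFE libraries held 6 and 9 counts of Nhlh1 (0.244 and 0.444 CPM), and the back IFE libraries 3 and 4 (0.163 and 0.153 CPM). All 4 Merkel libraries lay far above all 4 IFE libraries, and paw Merkel library 2 was the lowest of the former. The log2 fold change of Nhlh1 was 9.66 in the paw (SE 0.71, edgeR adjusted p = 1.49e-05) and 10.70 in back skin (SE 0.75, edgeR adjusted p = 8.92e-06). Means of 280 ± 184 and 273 ± 77.1 CPM (SD, n = 2) thus stood against 0.344 ± 0.141 and 0.158 ± 0.00719 CPM.

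Per length, in FPKM (fragments scaled by transcript length and library size), Nhlh1 ranked among the most abundant transcripts of the Merkel cell. It stood at 229 and 109 FPKM in the paw and at 214 and 156 FPKM in back skin, ranks 84, 435, 100 and 213 of the 24453 genes of the FPKM table. Atoh1 itself, the gene of the sort, stood at 212 and 247 FPKM in paw and at 173 and 153 FPKM in back Merkel libraries. The ratio of Nhlh1 to Atoh1 FPKM was 1.08, 0.442, 1.24 and 1.02 in paw libraries 1 and 2 and back libraries 1 and 2, so 3 of the 4 lay close to equal amounts. Sensory neurons also use Nhlh1 in development. Of 7 sensory neuron markers 4 were tested, with a median log2 fold change of Merkel over IFE cells of 2.04 in the paw and 7.19 in back skin (4.48 with genes absent from a group at their bound), and Avil alone passed the threshold at both sites, at 146 to 349 CPM in Merkel libraries. Rbfox3 lay above IFE without overlap at both sites but passed at neither, at 3.13 against 0.163 CPM in the paw and 2.28 against 0 CPM in back skin (edgeR adjusted p = 0.342 and 0.0809). Prph was at 0 in all 4 Merkel libraries, Scn10a was at 0 in 3 of them with 0.277 CPM in paw Merkel library 2, and Calca reached at most 0.532 CPM in Merkel libraries. The part of sensory neurons in the Nhlh1 level was not tested.

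Neurod1 (chromosome 2, 79452521 to 79456751) encodes a factor of neuronal and endocrine differentiation and was a low transcript with counts in Merkel libraries only. The paw Merkel libraries held 80 and 112 counts (3.83 and 10.3 CPM) and the back Merkel libraries 240 and 23 counts (18.3 and 2.25 CPM). All 4 IFE libraries held 0 counts of Neurod1. Within back Merkel cells the libraries thus differed more than the paw and back means did (7.08 ± 4.59 and 10.3 ± 11.3 CPM, SD, n = 2). Taking 3 counts over the IFE group as the floor, Neurod1 was at least 106-fold higher in paw (edgeR adjusted p = 0.0410) and at least 153-fold higher in back Merkel cells (edgeR adjusted p = 0.0189). The paw call was lost without paw Merkel library 2 (edgeR adjusted p = 0.113), paw IFE library 1 (0.209), paw IFE library 2 (0.207) or back Merkel library 1 (0.0830), in a fit of the paw libraries alone (0.0598) and in the 3 FPKM fits (limma adjusted p from 0.0637 to 0.273). The back call was lost when back Merkel library 1 (edgeR adjusted p = 0.0936) or either back IFE library was left out (0.0799 for library 1 and 0.0861 for library 2), and in 2 of the FPKM fits (limma adjusted p = 0.0666 and 0.135). Of the exonic bases of Neurod1 13.01% are shared with Cerkl and the antisense gene Gm26755, and reads there cannot be assigned to one of them if counting ignored strand, which the sources used here do not state.

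The other proneural members were nearly silent. Neurod2, a factor of cortical neurons (chromosome 11, 98325415 to 98329648), had 6 and 1 counts in paw Merkel libraries, 2 and 0 in back Merkel libraries and 0 in the IFE libraries. Nhlh2, the close relative of Nhlh1 (chromosome 3, 102010076 to 102015492), had 1 count in paw Merkel library 1 and 0 elsewhere. Neurod4 (chromosome 10, 130268152 to 130280240) had 0 counts in all 8 libraries. A count of 0 allows up to 0.114 to 0.293 CPM, depending on the library (3 counts of its total, counting error only). The Merkel cell transcript pool therefore held Nhlh1 without a like amount of its paralog Nhlh2, and Neurod1 without one of Neurod2 or Neurod4. These 3 genes did not pass the filter on low counts.

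**Figure D1:**
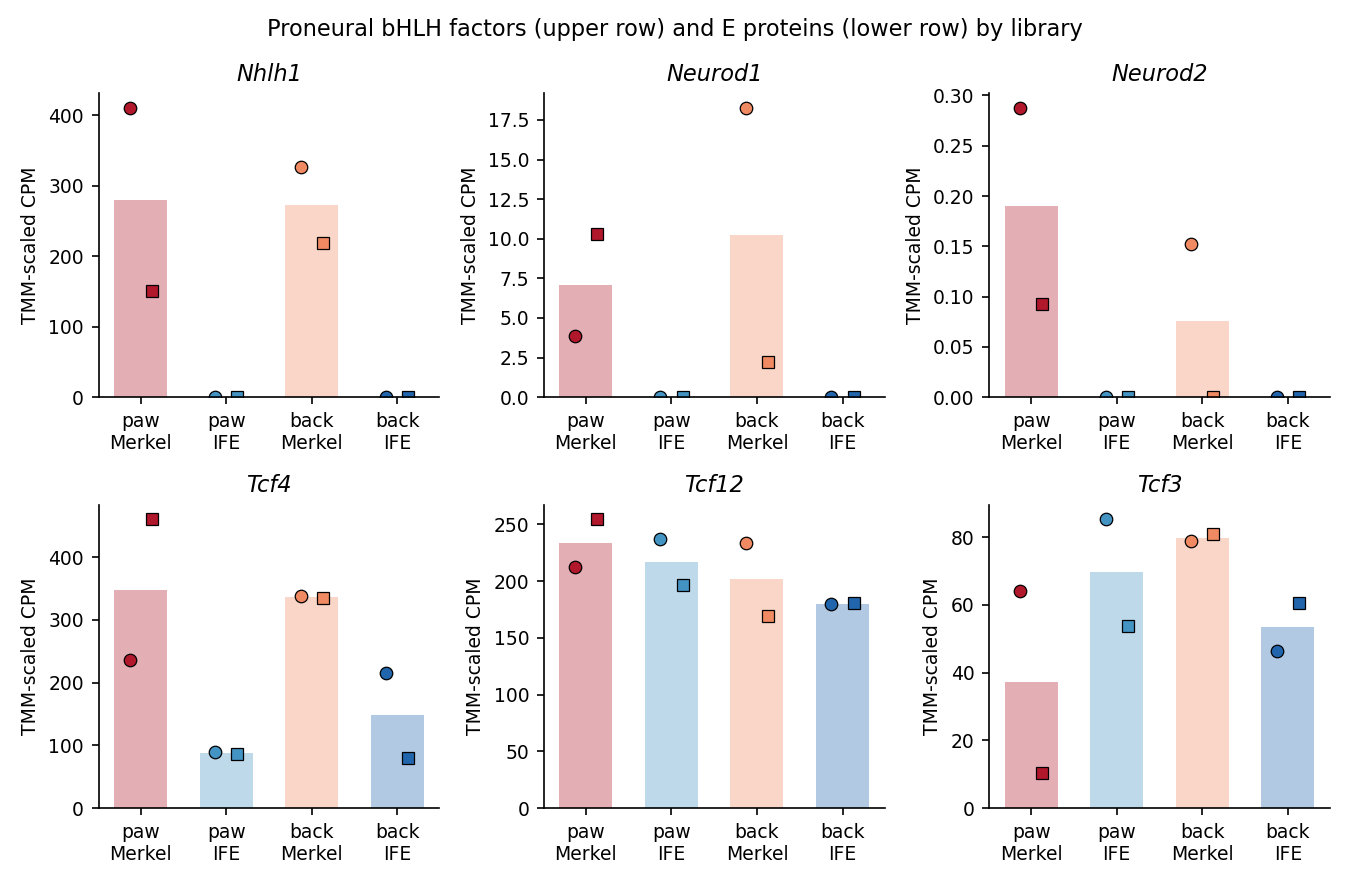
TMM-scaled CPM of 6 members in each library (circles, library 1; squares, library 2), with bars at the mean of the 2 libraries of a group and a linear axis from 0 in each panel. Nhlh1 reached 150 to 410 CPM in Merkel cells and at most 0.444 CPM in IFE cells, while Tcf12 stayed between 169 and 255 CPM in all 8 libraries.

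The E proteins, the dimer partners, were present in both cell types, and Tcf4 was the one called between them, in the paw only. Tcf4 (chromosome 18, 69343356 to 69689079) measured 235 and 461 CPM in paw Merkel libraries 1 and 2 and 338 and 335 CPM in back Merkel libraries. In IFE cells it measured 89.6 and 86.7 CPM in the paw and 216 and 80.3 CPM in back skin. The 3 IFE libraries other than back IFE library 1 lay close together, that library came near the lowest Merkel library, and the groups overlapped at neither site. The log2 fold change of Tcf4 was 1.98 in the paw (SE 0.48, edgeR adjusted p = 0.0318) and 1.19 in back skin (SE 0.47, edgeR adjusted p = 0.110), with means of 348 ± 159 against 88.2 ± 2.07 CPM and 336 ± 2.52 against 148 ± 95.6 CPM (SD, n = 2).

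Whether Tcf4 passed the threshold rested on single libraries. In the paw it was 1.42 on the log2 scale without paw Merkel library 2 (edgeR adjusted p = 0.189), and the call was also lost without paw IFE library 1 (0.166), paw IFE library 2 (0.186), back Merkel library 1 (0.0631) or back Merkel library 2 (0.0615) and in the 3 FPKM fits (limma adjusted p from 0.0503 to 0.116). In back skin it was 2.07 when back IFE library 1 was left out (edgeR adjusted p = 0.0266) and 0.64 when back IFE library 2 was left out (0.423), and it passed with no filter on low counts (1.18, edgeR adjusted p = 0.0205) and on log2(FPKM + 1) (1.65, limma adjusted p = 0.0470). Back IFE library 1 was also the library with the most immune and Langerhans cell transcripts, with Cd74 at 483 CPM against 59.6 CPM in back IFE library 2, Ptprc at 53.6 against 21.9 CPM and Cd79a at 0 in both. Fibroblast markers, by contrast, summed to 92.6 CPM in back IFE library 1 and 411 CPM in library 2. The part of these cells in the Tcf4 levels was not tested. With an offset for GC content in each library, added after the values were seen, the paw log2 fold change of Tcf4 was 1.87 (edgeR adjusted p = 0.0378).

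Tcf12, the E protein also called HEB (chromosome 9, 71842688 to 72111871), was level across all libraries. It measured 213 and 255 CPM in paw Merkel, 237 and 197 CPM in paw IFE, 234 and 169 CPM in back Merkel and 180 and 180 CPM in back IFE libraries. The ranges of Merkel and IFE cells overlapped at both sites. Its log2 fold changes were 0.11 in the paw (SE 0.32, edgeR adjusted p = 0.891) and 0.16 in back skin (SE 0.32, edgeR adjusted p = 0.773) and passed no threshold.

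Tcf3, the E protein that gives rise to E12 and E47 (chromosome 10, 80409514 to 80433647), did not pass the threshold at either site. It measured 64.0 and 10.5 CPM in paw Merkel, 85.4 and 53.9 CPM in paw IFE, 78.7 and 80.9 CPM in back Merkel and 46.5 and 60.5 CPM in back IFE libraries. Paw Merkel library 2 stood far below the other 7, which lay between 46.5 and 85.4 CPM. The log2 fold change of Tcf3 was -0.90 in the paw (SE 0.67, edgeR adjusted p = 0.493) and 0.58 in back skin (SE 0.67, edgeR adjusted p = 0.603). Without paw Merkel library 1, so on the low library alone, it was -2.73 (edgeR adjusted p = 0.0139), and without paw Merkel library 2 it was -0.12 (edgeR adjusted p = 0.953).

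The low Tcf3 value came from the library in which GC-rich transcripts were low. The longest Tcf3 transcript is 60.98% GC, above 97.5% of the 14839 tested genes with a GC value, whereas those of Tcf12 and Tcf4 are 44.4% and 40.9% GC. Between paw Merkel libraries Tcf3 differed by -2.59 on the log2 scale (library 2 less library 1), against the median of -0.95 for genes over 60% GC, and Tcf4 by 0.97 against 0.16 for genes of 40 to 45% GC. With the GC offset the paw log2 fold change of Tcf3 was -0.77 (edgeR adjusted p = 0.431). Nhlh1, at 54.6% GC, differed by -1.45 between these libraries, where the median of genes of 50 to 55% GC was -0.27. Insm1, at 62% GC, measured 588 CPM in paw Merkel library 1 and 347 CPM in library 2. Keratinocyte markers summed to 7762 and 1771 CPM in the same libraries. The cause of these differences between the libraries was not tested.

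**Figure D2:**
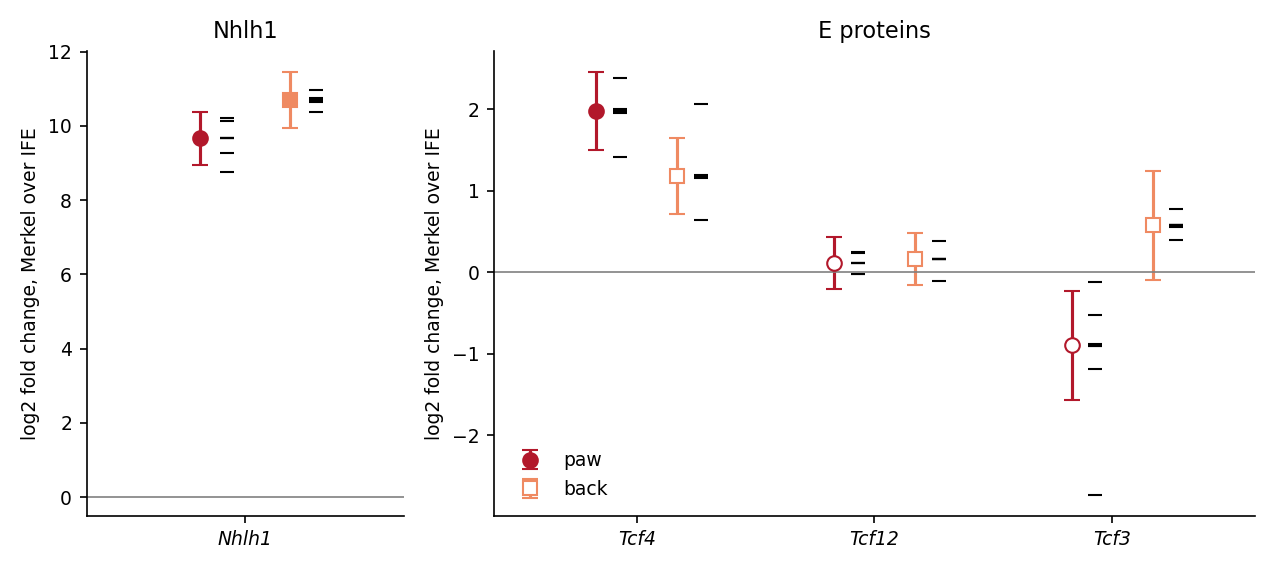
Log2 fold change of Merkel over IFE cells with its SE (error bars) for Nhlh1 and the E proteins, in the paw (circles) and back skin (squares), filled where the adjusted p was under 0.05. Dashes beside each point are the values with each of the 8 libraries left out in turn: those of Nhlh1 ran from 8.76 to 10.21 in the paw, and those of Tcf3 in the paw from -2.73 to -0.12.

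Class II factors can pair with any of the E proteins, so the make-up of the E protein pool was described per length. Their FPKM summed to 92.4 and 104 in paw Merkel, 85.6 and 71.3 in paw IFE, 120 and 111 in back Merkel and 68.1 and 66.4 in back IFE libraries. The sum was higher in each Merkel library than in any IFE library, by little in the case of paw Merkel library 1. Tcf4 made up 25.7% and 49.96% of the sum in paw Merkel, 30.3% and 32.3% in back Merkel, 9.78% and 10.5% in paw IFE, and 24.8% and 10.3% in back IFE libraries. Its lowest share in a Merkel library was thus just above that of back IFE library 1 and well above the other 3 IFE libraries. Tcf12 made up 29.1% to 44.1% of the sum in Merkel and 45.3% to 52.7% in IFE libraries, ranges that do not overlap. These shares were not tested.

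**Figure D3:**
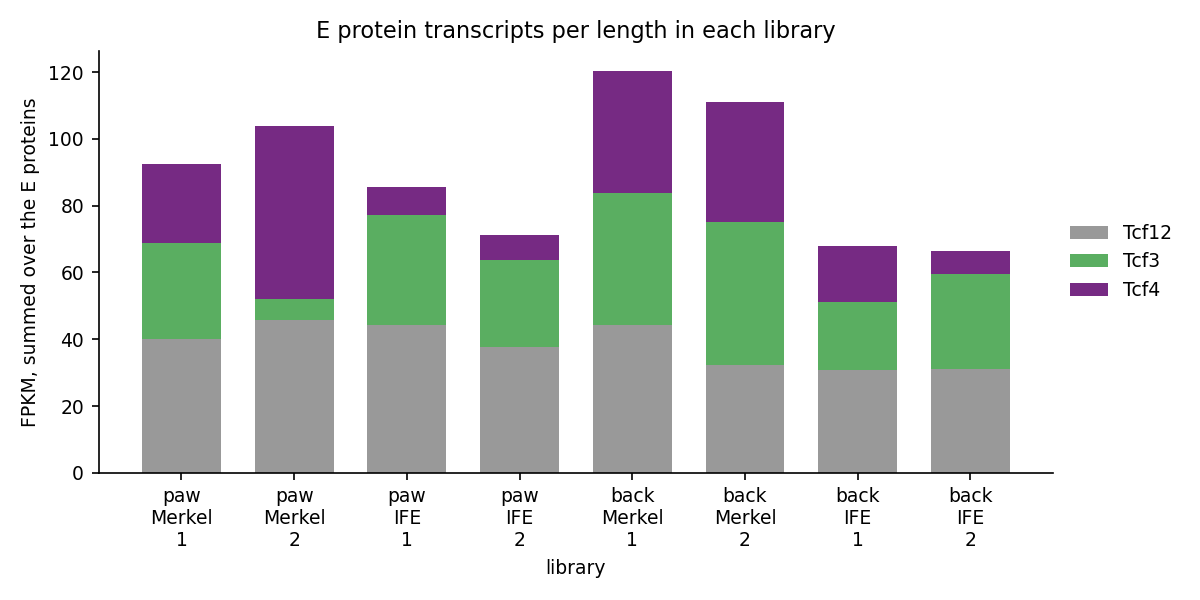
Deposited FPKM of Tcf12, Tcf3 and Tcf4, stacked for each of the 8 libraries on a linear axis from 0. The sums were 92.4 to 120 FPKM in Merkel and 66.4 to 85.6 FPKM in IFE libraries, and the Tcf3 segment is smallest in paw Merkel library 2 (6.2 FPKM).

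In paw Merkel cells the order of levels was Nhlh1 (169 ± 84.8 FPKM), Tcf12 (42.9 ± 4.13), Tcf4 (37.8 ± 19.9), Tcf3 (17.5 ± 15.9) and Neurod1 (2.91 ± 2.06), each SD over n = 2. Of these neighbours only Nhlh1 and Tcf12 differed beyond their spread. In back Merkel cells the order was Nhlh1 (185 ± 40.8 FPKM), Tcf3 (41.2 ± 2.31), Tcf12 (38.3 ± 8.51), Tcf4 (36.2 ± 0.415) and Neurod1 (4.70 ± 5.12), and neighbouring E proteins in that order did not differ beyond their spread. In IFE cells Tcf12 led in the paw (40.9 ± 4.71 FPKM, then Tcf3 at 29.6 ± 4.80 and Tcf4 at 7.94 ± 0.608) and in back skin (30.9 ± 0.128, then Tcf3 at 24.5 ± 5.83 and Tcf4 at 11.9 ± 7.14). Nhlh1 exceeded the summed E proteins in all 4 Merkel libraries, by 2.48, 1.05, 1.78 and 1.41 times in FPKM.

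Between the sites no member differed past the threshold. Between paw and back Merkel cells 28 genes passed (0.185% of those tested), 0 of them members. The log2 fold changes of paw over back were 0.04 for Nhlh1 (SE 0.47), 0.05 for Tcf4 (SE 0.46), 0.21 for Tcf12 (SE 0.32), -0.54 for Neurod1 (SE 1.49) and -1.10 for Tcf3 (SE 0.68), with edgeR adjusted p from 0.608 to 0.999. The signs for Nhlh1 and Tcf4 changed with the scaling or the test. Paw IFE against back IFE cells gave 0 genes (0%) past the threshold in edgeR, with 643 at an unadjusted p under 0.05 and 84 called by DESeq2. The test of whether the Merkel and IFE difference itself differed between sites also gave 0 genes (0%), with 1365 at an unadjusted p under 0.05 and 273 called by DESeq2. For Tcf4 that difference of differences was 0.80 (SE 0.65, edgeR adjusted p = 0.782), for Tcf3 -1.48 (SE 0.95, edgeR adjusted p = 0.705) and for Nhlh1 -1.04 (SE 0.87, edgeR adjusted p = 0.790), so the call on Tcf4 in the paw alone does not show a difference between sites.

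Atoh1 itself measured 294 ± 14.5 CPM in paw and 196 ± 25.2 CPM in back Merkel cells (SD, n = 2), against means of 0.115 and 0.310 CPM in the IFE cells of those sites. The log2 fold change was 11.27 in the paw and 9.21 in back skin (edgeR adjusted p = 3.19e-06 and 5.19e-06). This gene drove the reporter used in the sort, so its difference checks the labels and is not a finding.

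Among the genes listed as inhibitors of bHLH dimers, Hes6 was higher and Bhlhe40 lower in Merkel cells at both sites. Of 16 such genes, the Id, Hes and Hey genes with Helt, Bhlhe40 and Bhlhe41, 11 were tested. In the paw 1 was higher in Merkel cells (Hes6) and 1 lower (Bhlhe40), and in back skin 1 was higher (Hes6) and 3 lower (Id2, Id3 and Bhlhe40). Of all genes 4.28% were higher and 1.93% lower in the paw, and 7.99% and 7.45% in back skin, so 1 gene of 11 higher is near the share of all genes. Hes6, which counters Hes1 in neurogenesis, measured 57.2 ± 10.9 against 0.328 ± 0.234 CPM in the paw (SD, n = 2, log2 fold change 7.43, edgeR adjusted p = 0.00141) and 17.7 ± 12.4 against 1.54 ± 0.413 CPM in back skin (3.52, edgeR adjusted p = 0.0182). Bhlhe40, a repressor that binds E-boxes, fell by 3.12 on the log2 scale in the paw (edgeR adjusted p = 0.00352) and by 2.06 in back skin (edgeR adjusted p = 0.0145). The median of the 11 genes was 0.57 in the paw and -2.06 in back skin on the log2 scale. This list was chosen with earlier results of these data known, so its counts and median are a description only. Of these calls Hes6 in back skin was lost in 5 of 18 alternatives, Bhlhe40 in 1 in the paw and 3 in back skin, and Id3 in back skin in 2.

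Id2 and Id3, which encode the inhibitory partners of E proteins, were higher in paw than in back Merkel cells. Id2 had 661 and 183 counts in paw Merkel (31.7 and 16.9 CPM) and 0 in both back Merkel libraries, against 3.83 and 12.7 CPM in paw IFE and 9.01 and 13.4 CPM in back IFE libraries. Id3 measured 101 and 85.2 CPM in paw Merkel, 6.09 and 3.03 CPM in back Merkel, 40.5 and 50.2 CPM in paw IFE and 18.3 and 60.9 CPM in back IFE libraries. At neither gene did paw and back Merkel cells overlap. Id2 was at least 189-fold and Id3 20.5-fold higher in paw than in back Merkel cells (edgeR adjusted p = 0.0429 for both), and they were 2 of the 28 genes called in that comparison (0.185% of all tested). Id1 had 14.6 and 12.4 CPM in paw Merkel and 0 and 0.0977 CPM in back Merkel libraries (edgeR adjusted p = 0.128), and Id4 46.3 and 52.1 against 8.90 and 10.6 CPM (edgeR adjusted p = 0.373).

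These site differences had little margin. Out of 18 alternatives the call on Id2 was lost in 8 and that on Id3 in 7, with edgeR adjusted p up to 0.248 and 0.294, both without back Merkel library 2. The paw difference less the back difference did not pass the threshold for Id2 (edgeR adjusted p = 0.165) or Id3 (edgeR adjusted p = 0.242). Among markers of other cells the fibroblast gene Dcn also differed between paw and back Merkel cells (70.8 ± 21.7 against 4.36 ± 1.05 CPM, SD, n = 2, edgeR adjusted p = 0.0336, lost in 8 of 18 alternatives). Col3a1 had means of 9.87 and 0.212 CPM and Col1a1 of 0.406 and 0.0489 CPM in paw and back Merkel cells, whereas Col1a2 ran the other way, at 27.9 and 119 CPM (edgeR adjusted p = 0.160, 0.583 and 0.180). The median log2 fold change of the 4 tested fibroblast markers was 3.53 for paw over back Merkel cells, the direction of Id2 and Id3. The 8 fibroblast markers summed to 85.7 to 133 CPM in paw and 77.9 to 170 CPM in back Merkel libraries, and in the latter Col1a2 alone gave 74.0 and 165 CPM. Twist1 and Twist2 were at 0 in every library. The part of other cells in the Id values was not tested. Paw Merkel and paw IFE means were 24.3 and 8.28 CPM for Id2 and 93.3 and 45.4 CPM for Id3 (edgeR adjusted p = 0.409 and 0.363).

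**Figure D4:**
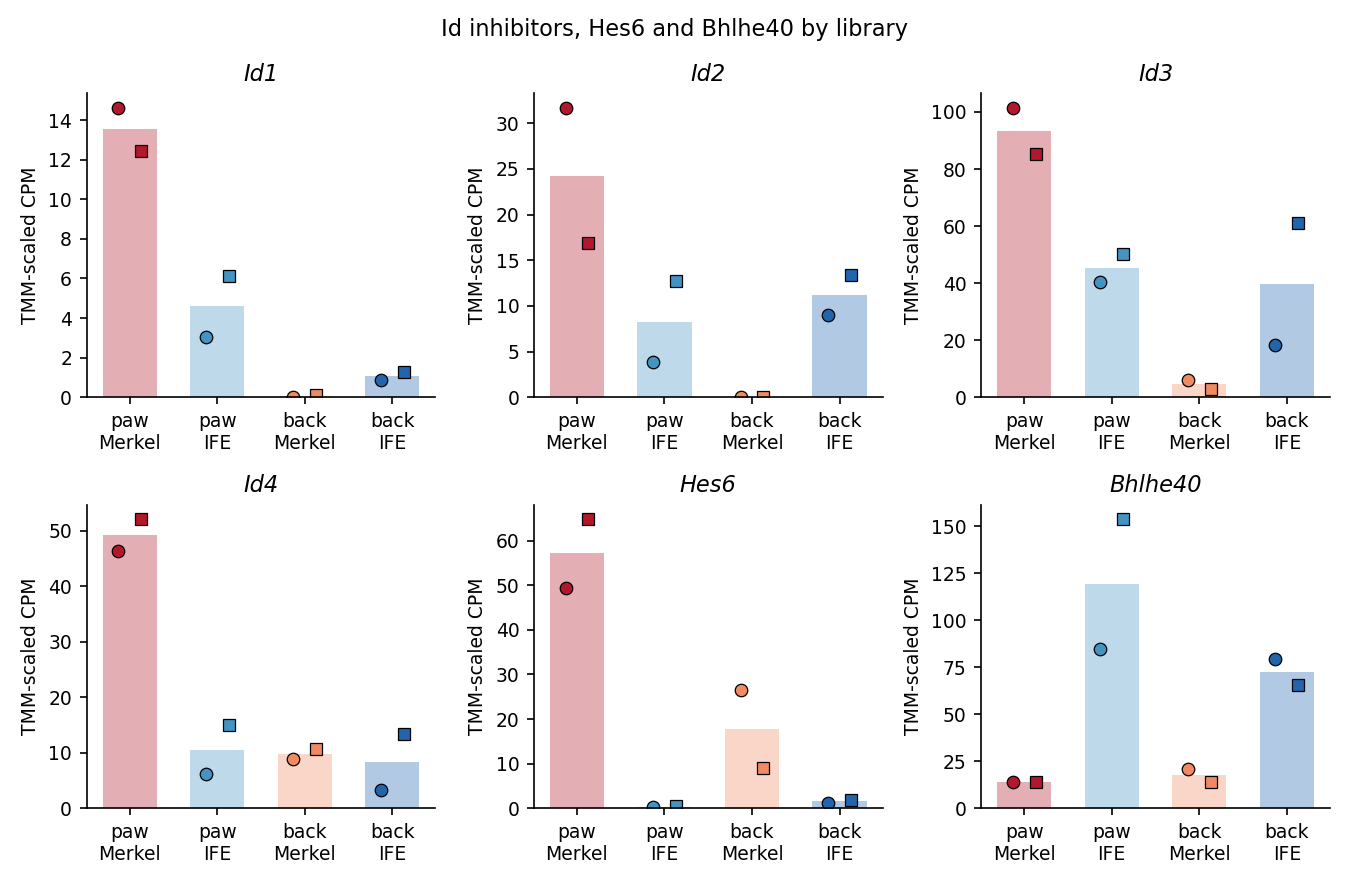
TMM-scaled CPM of the 4 Id genes, Hes6 and Bhlhe40 in each library (circles, library 1; squares, library 2), with bars at the group mean and a linear axis from 0 in each panel. Id2 was at 0 in both back Merkel libraries and at 16.9 and 31.7 CPM in paw Merkel libraries, and Bhlhe40 was lower in every Merkel library (13.7 to 21.1 CPM) than in any IFE library (65.8 to 154 CPM).

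Of 17 cofactors of E proteins, all tested, 3 were higher in Merkel cells at both sites, and 1 (Lmo4) was lower in back skin, a call lost in 6 of 18 alternatives, those without any 1 of the 4 back libraries or of the 2 paw IFE libraries. Of all genes tested 4.28% were higher in the paw, and in back skin 7.99% were higher and 7.45% lower. The 3 were Runx1t1, Cbfa2t2 and Cbfa2t3, the genes of the ETO family of corepressors, which bind the activation domains of E proteins. Of these, Runx1t1 passed the filter on low counts through Merkel libraries and could not have been called lower. The list was also chosen with earlier results of these data known, so its counts and median are a description only. Runx1t1 measured 100 and 379 CPM in paw Merkel, 480 and 437 CPM in back Merkel and at most 0.489 CPM in IFE libraries (log2 fold change 9.21 and 11.49, edgeR adjusted p = 4.74e-05 and 1.59e-05 in paw and back). Cbfa2t3 measured 195 and 41.9 CPM in paw Merkel and 105 and 67.5 CPM in back Merkel against 0.244 to 3.42 CPM in IFE libraries (6.38 and 4.71, edgeR adjusted p = 0.00498 and 0.00892). Cbfa2t2, present in both cell types, measured 447 ± 76.8 against 92.4 ± 21.1 CPM in the paw and 333 ± 0.229 against 99.0 ± 16.4 CPM in back skin (SD, n = 2, 2.27 and 1.75, edgeR adjusted p = 0.00194 and 0.00458). The calls on these 3 genes held in all 18 alternatives except that on Cbfa2t3 in back skin, which was lost without back IFE library 1 or 2. The acetyltransferases Ep300 and Crebbp had log2 fold changes of 0.34 and 0.19 in the paw and 0.72 and 0.20 in back skin and passed no threshold, and the median of the list was 0.19 and 0.30.

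Of 24 zinc finger and other factors that act with proneural factors, 16 were tested, and 11 were higher in paw and 10 in back Merkel cells, with 0 lower, against 4.28% and 7.99% of all genes higher. Isl1 and Sox2 of this list also stand among the 7 Merkel markers that checked the labels, so their direction adds nothing to that check. Myt1, Gfi1, Lhx3 and Pou4f3 had means of at most 0.277 CPM in either IFE group. Such genes passed the filter on low counts through Merkel libraries and could not have been called lower. The list was also chosen with earlier results of these data known, so its counts and median are a description only. The call on St18 was lost in 8 of 18 alternatives in the paw and in 4 in back skin, Rcor2 in 1 and Rfx3 in 2 in the paw. The 3 with the smallest adjusted p were Myt1, Isl1 and Insm1 at both sites. Insm1, a zinc finger factor downstream of proneural genes, measured 588 and 347 CPM in paw Merkel, 714 and 560 CPM in back Merkel and at most 0.938 CPM in IFE libraries (log2 fold change 9.40 and 10.76, edgeR adjusted p = 3.19e-06 and 2.18e-06). The median log2 fold change of the list was 8.33 in the paw and 8.88 in back skin, or 8.22 and 8.07 with genes absent from IFE cells at their bound. Of the 4 TCF/LEF genes, whose names resemble those of the E proteins, Lef1 was lower in Merkel cells at both sites (log2 fold change -2.32 and -4.03, edgeR adjusted p = 0.0279 and 0.00103), and Tcf7 was higher in back skin (3.76, edgeR adjusted p = 0.00616). The Lef1 call in the paw was lost in 6 of 18 alternatives and the Tcf7 call in 2.

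**Figure D5:**
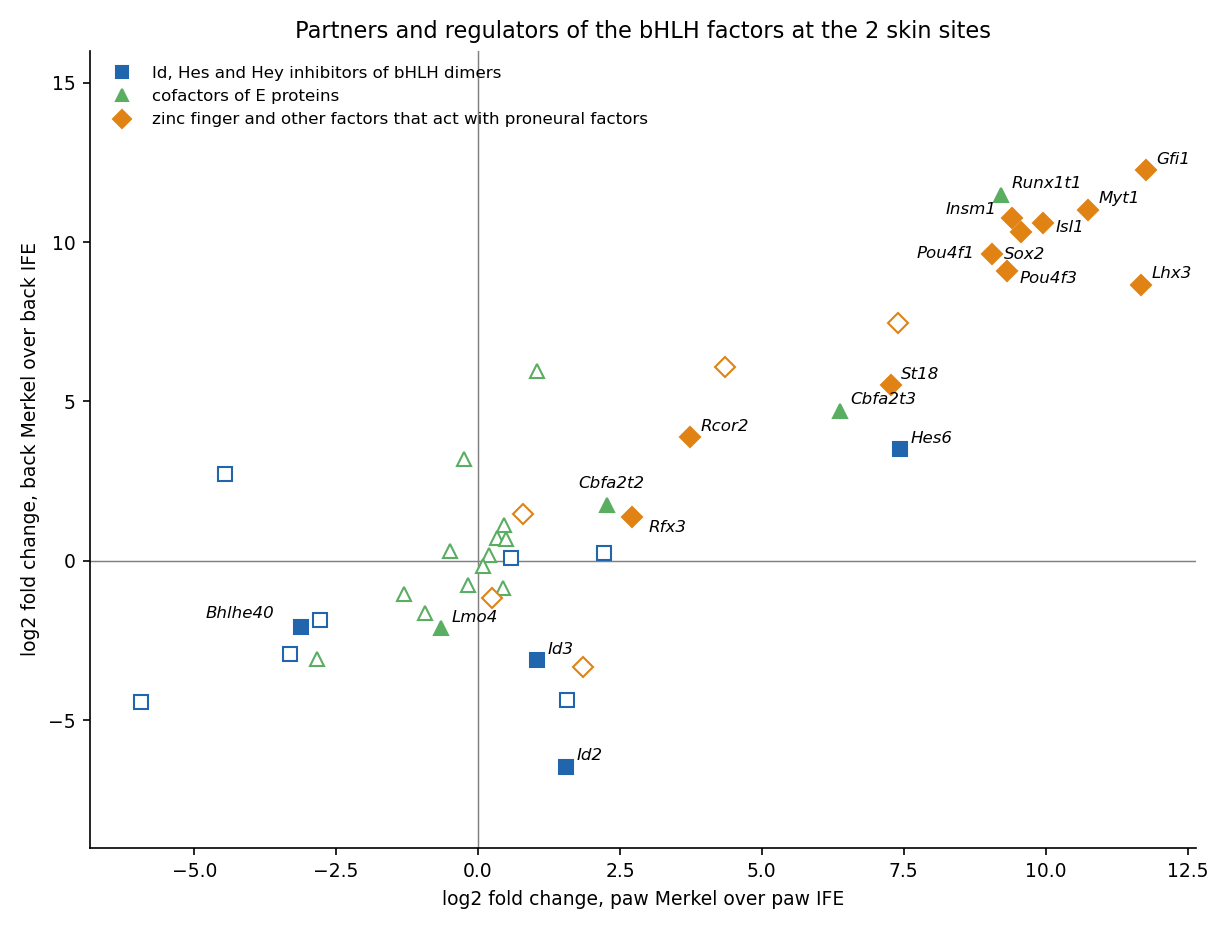
Log2 fold change of Merkel over IFE cells in the paw (horizontal) and back skin (vertical) for the tested genes of 3 lists, filled and named where the adjusted p was under 0.05 at either site. Genes with 0 counts in a group are drawn at their bound against 3 counts over the group. Hes7 in back skin, with an IFE mean below that level, is drawn at its fitted value of -2.93. Id2 and Id3 lie at 1.55 and 1.04 on the paw axis but below 0 on the back axis.

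The genes whose log2 CPM followed each member most closely over the 8 libraries were found among 10180 genes, as a description. For Nhlh1 they were Insm1 (r = 0.999), the guidance factor Draxin (0.996) and the actin regulator Coro2b (0.995). The last 2 stood at 14.4 and 50.8 CPM in paw and 12.6 and 52.3 CPM in back Merkel cells and at no more than 0.0271 CPM in the mean of either IFE group. For Neurod1 they were Zfp101 (0.994), the tyrosine hydroxylase gene Th (0.987) and Rgl3 (0.986). Th had 13.8 ± 2.31 CPM in paw and 23.5 ± 23.6 CPM in back Merkel cells (SD, n = 2), with the same wide spread in back skin as Neurod1. For Tcf4 they were the prohormone convertase Pcsk2 (0.988), Kdm4c (0.987) and Vrk3 (0.982), and for Tcf12 Wnk4 (0.959), Rbm12 (0.947) and Eif2b3 (0.938). For Tcf3 they were Tmem259 (0.979), Zfp628 (0.974) and Paqr4 (0.968). Each was at or near 0 in paw Merkel library 2 (0.369, 0.184 and 0 CPM), and they are at 61.7%, 63.5% and 58.9% GC. They were picked for following Tcf3, itself low in that library, so their low values there are no separate observation. The libraries of a group share cell type and site, so such an r is no sign of a tie beyond the groups.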

How the data were processed

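RNA of 8 libraries of sorted mouse skin cells was sequenced; per the labels' protocols 10 ng of total RNA per library was amplified and read as 150-nucleotide paired ends. The authors deposited whole-number gene counts and FPKM values, which they had scaled to length and depth. Per the submitters' processing notes the genome was mm10 and the tools were TopHat2 2.0.13, Cufflinks 2.2.1, featureCounts of Subread 1.4.6 and DESeq2 1.6.3; annotation and strand setting are not given in the sources used here.

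Deposited counts were filtered with filterByExpr by group, leaving 15151 genes, scaled by TMM and tested with the quasi-likelihood F test of edgeR 4.0.16 (limma 3.58.1, R 4.3.3), with 1 mean per group over all libraries. DESeq2 1.42.0 and limma on log2 CPM or log2(FPKM + 1) were alternatives. The tests recovered known changes on simulated data with the same spread for every gene and changes in well-counted genes only. That setting is simpler than these libraries, so it does not vouch for calls on low or variable genes. SE is the log2 fold change divided by the root of F. Levels between genes are compared in deposited FPKM only. A fold against a group at 0 is a bound against 3 counts over the group; amplified reads are not independent molecules, so such floors cover counting error only. Totals of 11139306 to 26195076 counts set the precision.

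The labels do not state whether replicate numbers pair the samples, so no block was used in the main fit. The members and the gene lists were chosen with earlier results of these data known. By rule all 8 members are given, up to 3 genes of each list by adjusted p, and the 3 genes most correlated with each member (Pearson r of log2 CPM, prior count 2, mean of at least 10 CPM in a group, proper symbols); the other named genes, among them Id1, Id4, Hes6 in back skin, Lmo4, St18, Sox2, Rcor2, Rfx3, Ep300, Crebbp, Tcf7, Lef1, single marker genes and those labelled in the plot of partners, were chosen after their values were seen, as was the GC offset. Positions are from GENCODE vM21 (GRCm38), which held all 8 members, and promoters from RefSeq GRCm38.p6, which held 7. Single genes of the fixed lists, and the list of other class II bHLH factors, are not reported here.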

Additional observations from a re-analysis of the deposited data

How the results depend on the processing

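The counts of members called were 1 in the paw with each of the 3 FPKM fits (log2(FPKM + 1), log2(FPKM + 0.1), and without the filter on low values), against 3, and 1 in back skin with the unfiltered FPKM fit, against 2. Leaving out 1 library at a time gave 1 to 4 members in the paw and 1 to 2 in back skin. Nhlh1 was called at both sites in all 18 alternatives. The deviations of same-numbered libraries correlated at -0.04 to 0.08; a replicate block kept 3 and 2 members called, with 1144 and 2520 genes in all, and changed no member's call. Limma-trend moved the median of all genes by -0.10 in the paw and by -0.12 in the difference between sites, and the GC offset by 0.17 in the paw and 0.14 in back skin.

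Genes called in all were 1920 in the paw without a filter, 2227 by DESeq2 and 441 by unfiltered FPKM, against 941, and 3963 in back skin by DESeq2, against 2338; leaving out 1 library gave 392 to 2167 and 1143 to 3205. For paw against back Merkel cells they were 452, 512, 88, 13 and 12 (no filter, DESeq2, only the libraries compared, and the FPKM fits with pseudocounts of 1 and 0.1), and 0 to 40 with 1 library left out, against 28. For IFE cells they were 120 and 84 (no filter, DESeq2), 1 with the block and 2, 1 and 8 by FPKM, against 0, and for the difference between sites 305 and 273, 1 with the GC offset, 1 with DESeq2 size factors, 4 with the block and 2 by FPKM, against 0. The cause of these shifts was not tested.

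Signs that changed belonged to values that passed no threshold. Paw over back Merkel cells, Nhlh1 was -0.088 with the GC offset, -0.0057 with DESeq2 size factors, -0.0058 by DESeq2, -0.11 by limma-trend, -0.044 with the replicate block and -0.21 by the 3 FPKM fits, and Tcf4 -0.031 by limma-trend and -0.041, -0.045 and -0.041 by the 3 FPKM fits. Tcf3 between IFE cells was -0.059 with the GC offset. With 1 library left out, paw over back Merkel cells ran from -0.86 to 0.59 for Nhlh1, -1.42 to 1.67 for Neurod1, -0.52 to 0.45 for Tcf4 and -0.0011 to 0.49 for Tcf12. Tcf12 ran from -0.028 to 0.25 in the paw, -0.11 to 0.38 in back skin and -0.27 to 0.22 for the difference between sites, and Tcf4 from -1.29 to 0.13 between IFE cells and -0.085 to 1.34 for the difference between sites. Scaling each library to the same FPKM total moved 3 of the 21 mean FPKM values by more than their SD, to 34.6 for Tcf4 in back Merkel, 29.4 for Tcf12 in back IFE and 0.0834 for Nhlh1 in back IFE cells.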
